A study of Mus musculus with 6 samples.

Results

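The 32 genes described here encode enzymes and regulators of cholesterol synthesis (14 genes), enzymes and regulators of fatty acid and triglyceride synthesis (15 genes), and perilipins (3 genes). They were chosen by gene symbol, and all 32 were among the 18197 symbols of the count table and among the 16543 genes with enough counts to be tested. The libraries came from cancer-associated fibroblasts, the stromal cells of a tumour, sorted from mammary tumours of C57BL/6 mice. All of these mice carried the polyoma middle T oncogene (PyMT), and tumours were taken at 16 to 20 weeks. The groups were 3 libraries labelled mPGES-1 KO and 3 libraries labelled WT, the PyMT mice without that knockout by their label. mPGES-1, microsomal prostaglandin E synthase-1, makes the lipid mediator prostaglandin E2. The promoter behind the oncogene, the surface markers of the sort and whether each library came from 1 animal were not given in the sources used. The p-values therefore describe differences among these 6 libraries, which may be partly technical.

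Cells build cholesterol from acetyl-CoA through mevalonate, farnesyl diphosphate, squalene and lanosterol, and build fatty acids from the same acetyl-CoA through malonyl-CoA. Both routes are driven by the sterol regulatory element-binding proteins, transcription factors held in the endoplasmic reticulum by INSIG proteins when sterols are plentiful and released for cleavage when sterols run low. SREBP-2 acts mainly on sterol genes and SREBP-1 mainly on fatty acid genes. Triglycerides and sterol esters are stored in lipid droplets, which perilipins coat and protect from lipases. In the mammary gland the epithelium, which secretes milk fat, and the adipocytes of the fat pad are the cell types best known for lipid synthesis and storage.

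Total counts ran from 23013498 to 37249186 in mPGES-1 KO-labelled libraries and from 37432510 to 43648450 in WT-labelled libraries. Ptges, which encodes mPGES-1, was at 186, 137 and 129 CPM (counts relative to the scaled library total) in mPGES-1 KO-labelled libraries and at 31.9, 19.2 and 27.9 CPM in WT-labelled libraries. Every library labelled mPGES-1 KO was thus above every one labelled WT for the targeted gene (log2 fold change 2.51 ± 0.31, edgeR adjusted p = 0.0171). A total over the gene cannot show whether a part of it is deleted, and every direction below is drawn from the labels alone. Of 12 fibroblast markers, 1 was called lower (Thy1) and 0 higher, where 1.56% of all genes were called lower and 1.20% higher. The log2 fold changes were negative in 9, their median was -1.09, and the groups were apart in 4, or 33.3%, all lower. Groups were apart in 27.9% of all genes, and apart and lower in 15.7%. Together the 12 took 0.683% to 1.78% of counts in mPGES-1 KO-labelled libraries and 1.08% to 2.72% in WT-labelled libraries. Col1a1, a collagen chain, averaged 688 ± 453 CPM in mPGES-1 KO-labelled libraries and 3897 ± 2765 CPM in WT-labelled libraries (edgeR adjusted p = 0.100). The groups overlapped for the collagen chains Col3a1 and Col1a2, with log2 fold changes of -1.17 ± 0.58 and -1.36 ± 0.61 (SE). Dcn, a small matrix proteoglycan and the highest of the list, was 1 of 3 with a positive log2 fold change, at 5805 ± 2817 CPM in mPGES-1 KO-labelled libraries and 4320.0 ± 2792.8 CPM in WT-labelled libraries (SD, n = 3 each).

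The sets also differed in markers of other cells. Their counts stand beside 1.20% of all genes called higher, 1.56% called lower and 19.1% at an unadjusted p under 0.05. Luminal mammary epithelium markers (17 in the table) took 3.33% to 5.06% of counts in mPGES-1 KO-labelled libraries and 0.752% to 1.34% in WT-labelled libraries, with 6 called higher, 0 called lower and none at 0 in any library. Their share was above that of the fibroblast markers in every mPGES-1 KO-labelled library and in WT replicate 1 (1.34% against 1.31%), and below it in WT replicates 2 and 3. Csn3, a milk protein gene, held a large part of the luminal share. It was at 16656 to 32217 CPM in mPGES-1 KO-labelled libraries and 3494 to 8490 CPM in WT-labelled libraries (edgeR adjusted p = 0.0667). The log2 fold changes were positive in 16 of the 17 markers. Pericyte and smooth muscle markers (12 in the table) took 0.0187% to 0.0316% of counts in mPGES-1 KO-labelled libraries and 0.310% to 0.839% in WT-labelled libraries, with 9 called lower, 0 called higher and none at 0. Adipocyte markers (8 in the table) took 0.00199% to 0.00612% in mPGES-1 KO-labelled libraries and 0.00188% to 0.0100% in WT-labelled libraries, with 0 of 7 tested called by edgeR or at an unadjusted p under 0.05; Pck1 and Adrb3 were at 0 in at least 1 library. Macrophage and leukocyte markers (10) took 0.0433% to 0.195% and 0.0329% to 0.121%, and endothelial markers (7) 0.00134% to 0.00972% and 0.00195% to 0.00922%, in mPGES-1 KO-labelled and WT-labelled libraries in that order, with none called in either list by edgeR and 1 in each at an unadjusted p under 0.05. In sorted bulk libraries fewer cells of a type and less RNA per cell cannot be told apart, and the part of these markers in the lipid gene values was not tested.

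None of the 32 genes passed the test between the genotypes, at an adjusted p under 0.05 in edgeR's quasi-likelihood test over all 16543 genes. Over all tested genes 2.76% were called, 1.20% as higher and 1.56% as lower. The number of members at an unadjusted p under 0.05 was 5 of 32, or 15.6%, against 19.1% of all genes. DESeq2 and limma-voom each called 3 of the 32 members (Scd1, Plin3 and Plin4). Of all 16543 genes they called 2093 and 1965 in that order. In 8 of the 32 genes, or 25%, the groups did not overlap, against 27.9% of all genes; 4 were higher and 4 lower, against 12.2% and 15.7% of all genes. The log2 fold changes (labelled mPGES-1 KO over labelled WT) were positive in 14 members and negative in 18. Their median was -0.09, against -0.04 over all tested genes. The members' shares called, at an unadjusted p under 0.05 and with groups apart were all at or below those of all genes. A failed test does not show equal levels here, since the smallest log2 fold change called for any gene was 1.13 in size.

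**Figure D1:**
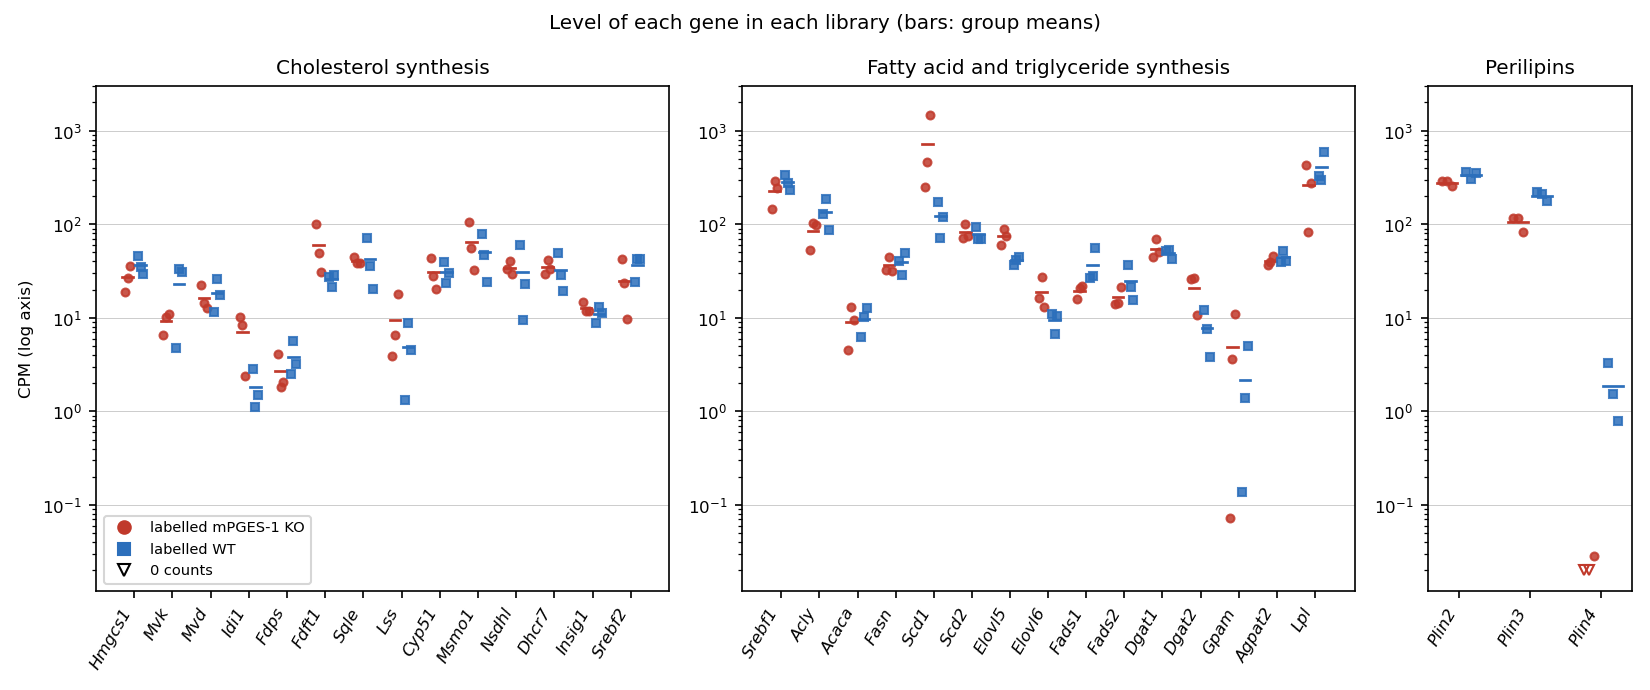
CPM of each gene in each library on a log axis, with red circles for the 3 libraries labelled mPGES-1 KO, blue squares for the 3 labelled WT, and short bars for group means; open triangles mark 0 counts. Group means differ by the largest factors for Scd1 and Plin4, while most cholesterol genes overlap.

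Most of the cholesterol gene promoters examined hold a short sequence that the choice of genes did not use. Of the 32 members, 23 had a promoter in the RefSeq table for GRCm38.p6, and the 250 bases before each start were searched on both strands for CCAAT, the box bound by nuclear factor Y, and for TCACNCCAC, a core form of the sterol regulatory element. These motifs did not overlap each other in any member promoter. The CCAAT box was present for all 11 cholesterol genes with a promoter in the table, 7 of which had at least 2 copies in a promoter. Dhcr7 had the box only in a promoter inside the gene, at chr7:143829964-143830213, and not in those at its start. The box was present for 4 of 9 fatty acid and triglyceride genes and for all 3 perilipin genes, with the Plin3 promoter also lying inside its gene. Among all 27025 genes with a promoter there, 37.5% had the box and 11.5% had at least 2 copies in a promoter. The sterol element core was found for Hmgcs1 alone among the members, and for 1.22% of all genes. Counted by promoter, CCAAT was in 11 of 13 cholesterol promoters and in 33.8% of all 32851 promoters, and TCACNCCAC in 1.05%. A match of letters describes these windows and does not show binding.

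The promoters of 4 members are given to show these letters, each as the 250 bases before a RefSeq start, read 5′ to 3′ on the gene's strand in GRCm38.p6, with capitals marking the motifs. Hmgcs1 holds 3 boxes as ATTGG and the sterol element core, and Msmo1 holds 3 boxes as CCAAT. Plin3 and Plin4, with 1 box each as ATTGG, are shown as the perilipins with the lowest unadjusted p. The Plin3 window lies inside the annotated gene and not at its annotated start.
Hmgcs1, chr13:119690101-119690350, plus strand: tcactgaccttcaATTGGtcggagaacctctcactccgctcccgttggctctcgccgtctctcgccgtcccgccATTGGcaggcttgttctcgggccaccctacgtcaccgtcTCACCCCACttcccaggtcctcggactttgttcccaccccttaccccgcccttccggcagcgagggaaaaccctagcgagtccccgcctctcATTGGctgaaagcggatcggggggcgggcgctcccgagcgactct
Msmo1, chr8:64733579-64733828, minus strand: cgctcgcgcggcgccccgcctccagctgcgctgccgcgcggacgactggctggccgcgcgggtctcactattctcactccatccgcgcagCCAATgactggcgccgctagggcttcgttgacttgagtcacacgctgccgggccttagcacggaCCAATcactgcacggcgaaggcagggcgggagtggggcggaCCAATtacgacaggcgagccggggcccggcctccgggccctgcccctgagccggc
Plin3, chr17:56290512-56290761, minus strand: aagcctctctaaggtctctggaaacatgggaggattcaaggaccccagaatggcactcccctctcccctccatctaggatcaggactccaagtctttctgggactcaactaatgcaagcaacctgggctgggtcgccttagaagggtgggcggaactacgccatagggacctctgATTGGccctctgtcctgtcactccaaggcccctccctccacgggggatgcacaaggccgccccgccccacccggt
Plin4, chr17:56109783-56110032, minus strand: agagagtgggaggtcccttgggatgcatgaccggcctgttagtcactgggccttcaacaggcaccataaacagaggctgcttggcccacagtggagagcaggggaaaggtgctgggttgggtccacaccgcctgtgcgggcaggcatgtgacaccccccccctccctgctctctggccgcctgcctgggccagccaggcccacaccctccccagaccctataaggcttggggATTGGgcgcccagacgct

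Cholesterol synthesis genes had the median log2 fold change nearest 0 of the gene groups, with 0 of 14 called by edgeR, against 2.76% of all genes. At an unadjusted p under 0.05 there was 1 of 14, against 19.1% of all genes. The groups did not overlap in 1 of 14, against 27.9%. The median log2 fold change was 0.03, with 7 members positive and 7 negative. Single values ran from -1.31 to 1.94 with SEs of 0.38 to 1.00, so a median near 0 does not show equal levels. Together the 14 genes took 0.0472%, 0.0370% and 0.0273% of counts in mPGES-1 KO replicates 1 to 3 and 0.0432%, 0.0351% and 0.0276% in WT replicates 1 to 3. The summed shares of the groups interleave.

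The early mevalonate steps overlapped between the groups. Hmgcs1, the HMG-CoA synthase that opens the route, was at 18.7, 26.8 and 35.8 CPM in mPGES-1 KO-labelled libraries and at 45.6, 34.8 and 29.2 CPM in WT-labelled libraries (log2 fold change -0.43 ± 0.38, SE). Its 95% interval ran from -1.30 to 0.44, and 9.79% of its 75-base stretches also occur in transcripts of another annotated gene, so its counts are uncertain. Mvk, which phosphorylates mevalonate, was at 6.62, 10.2 and 10.9 CPM in mPGES-1 KO-labelled libraries and at 4.78, 32.98 and 31.1 CPM in WT-labelled libraries (log2 fold change -1.31 ± 0.72). WT replicates 2 and 3 were the high libraries for Mvk, and WT replicate 1 was the lowest of all 6. Mvd, which decarboxylates the mevalonate product to isopentenyl diphosphate, averaged 16.4 ± 5.06 CPM in mPGES-1 KO-labelled libraries and 18.2 ± 7.12 CPM in WT-labelled libraries (SD, n = 3 each).

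The isoprenoid enzymes were low in counts. Idi1, the isomerase of isopentenyl diphosphate, was at 10.2, 8.42 and 2.38 CPM in mPGES-1 KO-labelled libraries and at 2.87, 1.11 and 1.48 CPM in WT-labelled libraries, with a log2 fold change of 1.94 ± 1.00 and an interval of -0.36 to 4.24. The libraries mPGES-1 KO replicate 3 and WT replicate 1 cross over, so the groups overlap. Fdps, which makes farnesyl diphosphate, averaged 2.67 ± 1.24 CPM in mPGES-1 KO-labelled libraries and 3.78 ± 1.61 CPM in WT-labelled libraries. The values of both genes are uncertain, because 23.6% of the distinct 75-base stretches of Idi1 transcripts and 23.5% of those of Fdps occur in transcripts of another annotated gene, predicted genes among them.

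Fdft1 was the single cholesterol gene whose groups did not overlap. It encodes squalene synthase, the first enzyme committed to sterols, and occupies chr14:63145150-63179578, minus strand, in GENCODE M21 on GRCm38, with 11 exonic blocks. It was at 101, 48.9 and 31.0 CPM in mPGES-1 KO-labelled libraries and at 27.5, 21.5 and 28.6 CPM in WT-labelled libraries. All 3 libraries labelled mPGES-1 KO were above the highest labelled WT, with mPGES-1 KO replicate 1 far above the others and mPGES-1 KO replicate 3 close to WT replicate 3. The log2 fold change was 1.22 ± 0.46 (edgeR adjusted p = 0.202), and leaving out mPGES-1 KO replicate 1 gave 0.63 (adjusted p = 0.457). Exonic bases amounting to 18.3% of Fdft1 also belong to Ctsb, the cathepsin B gene on the opposite strand. The reads hold no strand, and Ctsb averaged 2285 ± 310.1 CPM in mPGES-1 KO-labelled libraries and 1605 ± 503 CPM in WT-labelled libraries, so the Fdft1 values are uncertain.

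The squalene and lanosterol enzymes overlapped throughout. Sqle, squalene epoxidase, a rate-controlling step after mevalonate, was at 45.1, 38.9 and 38.2 CPM in mPGES-1 KO-labelled libraries and at 72.1, 35.9 and 20.1 CPM in WT-labelled libraries. Its spread was narrow among mPGES-1 KO-labelled libraries and wide among WT-labelled ones. Lss, which closes the ring to lanosterol, was at 3.91, 6.58 and 18.2 CPM in mPGES-1 KO-labelled libraries and at 1.32, 8.90 and 4.56 CPM in WT-labelled libraries. Cyp51, the lanosterol demethylase, had the log2 fold change nearest 0 of the 32 genes (-0.02 ± 0.41), and its sign turned with DESeq2 size factors (0.034) but not with library totals alone (-0.044). Msmo1, which oxidises the sterol methyl groups, was at 106, 56.2 and 32.8 CPM in mPGES-1 KO-labelled libraries and at 79.4, 46.4 and 24.4 CPM in WT-labelled libraries. It varied by more than 3-fold within each group. Nsdhl, the next demethylation enzyme, averaged 34.3 ± 5.85 CPM in mPGES-1 KO-labelled libraries and 30.7 ± 25.8 CPM in WT-labelled libraries. Dhcr7, which completes cholesterol from 7-dehydrocholesterol, averaged 34.5 ± 6.20 CPM in mPGES-1 KO-labelled libraries and 32.6 ± 15.2 CPM in WT-labelled libraries.

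The regulators of the sterol route showed no called difference. Insig1, the retention protein and itself a textbook SREBP target, was at 14.6, 11.9 and 11.8 CPM in mPGES-1 KO-labelled libraries and at 8.86, 13.0 and 11.3 CPM in WT-labelled libraries (log2 fold change 0.21 ± 0.50). Srebf2, which encodes SREBP-2, was at 42.2, 23.3 and 9.60 CPM in mPGES-1 KO-labelled libraries and at 24.4, 42.5 and 42.6 CPM in WT-labelled libraries (log2 fold change -0.55 ± 0.55). mPGES-1 KO replicate 3 was the low library for Srebf2, while mPGES-1 KO replicate 1 stood with WT replicates 2 and 3. Of 6 further genes of sterol sensing and SREBP processing, 0 were called by edgeR and 0 reached an unadjusted p under 0.05. Their log2 fold changes ran from -0.73 for Scap, the escort of SREBPs, to 0.89 for Mylip, a ubiquitin ligase for lipoprotein receptors.

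**Figure D2:**
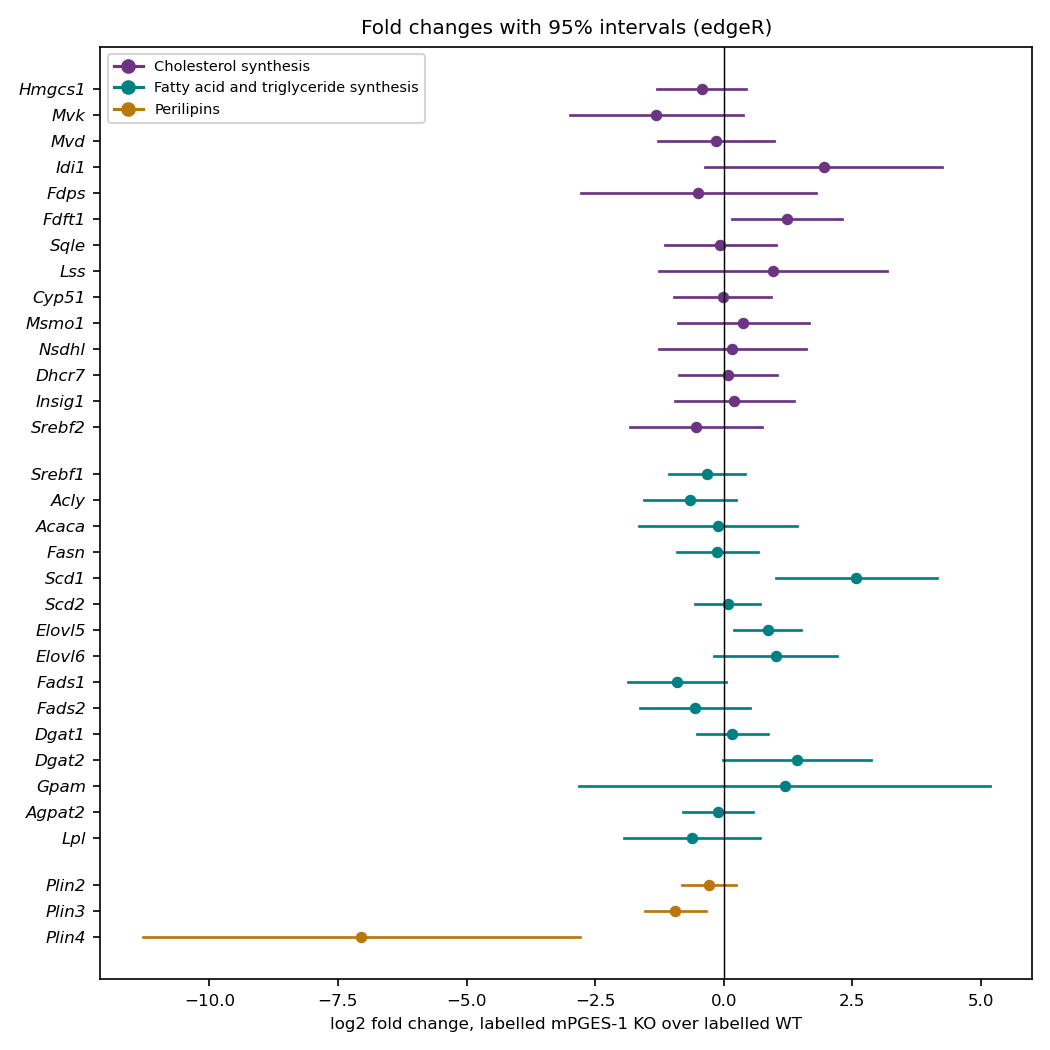
Log2 fold change of each gene, labelled mPGES-1 KO over labelled WT, as a point with its 95% interval from edgeR. The intervals of Fdft1, Scd1 and Elovl5 lie above 0 and those of Plin3 and Plin4 below 0, before any adjustment for the number of genes tested.

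Other sterol genes came from lists written from knowledge of the pathway, and their counts stand beside the 1.20% of all genes called higher and 1.56% called lower. Sc5d, the lathosterol desaturase of the final steps, rose and was at 133, 118 and 76.1 CPM in mPGES-1 KO-labelled libraries and at 26.9, 13.1 and 26.6 CPM in WT-labelled libraries. Every library labelled mPGES-1 KO was above every one labelled WT. Its log2 fold change was 2.29 ± 0.39 (edgeR adjusted p = 0.0309), and it was the 1 called of 8 other sterol enzymes, whose median log2 fold change was 0.00. Nr1h3, which encodes the oxysterol receptor LXR-alpha, an activator of sterol export and of Srebf1, fell. It was at 25.9, 13.4 and 30.9 CPM in mPGES-1 KO-labelled libraries and at 97.8, 161 and 119 CPM in WT-labelled libraries, with no overlap. Its log2 fold change was -2.43 ± 0.39 (adjusted p = 0.0281), and it was the 1 called of 5 genes of sterol export and esterification, whose median log2 fold change was -0.45. Both kept their direction under all 13 alternatives. Leaving out any 1 library except WT replicate 1 ended both calls, with adjusted p of 0.0724 to 0.119 for Sc5d and 0.0692 to 0.117 for Nr1h3.

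Fatty acid and triglyceride genes included Scd1, the highest positive log2 fold change of the 32, but as a group held 0 of 15 called by edgeR and 2 of 15 at an unadjusted p under 0.05. The groups did not overlap in 4 of the 15, 3 of them higher (Scd1, Elovl5 and Elovl6) and 1 lower (Fads1) in mPGES-1 KO-labelled libraries. Of all genes, 19.1% reached an unadjusted p under 0.05 and 27.9% had groups that did not overlap. The median log2 fold change was -0.11, with 7 positive and 8 negative. The 15 genes took 0.118%, 0.144% and 0.231% of counts in mPGES-1 KO replicates 1 to 3 and 0.133%, 0.123% and 0.134% in WT replicates 1 to 3. In mPGES-1 KO replicate 3 Scd1 had more counts than the other 14 genes together.

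Genes that start the route overlapped between the groups. Srebf1, which encodes SREBP-1, was at 144, 292 and 243 CPM in mPGES-1 KO-labelled libraries and at 338, 279 and 235 CPM in WT-labelled libraries (log2 fold change -0.33 ± 0.32, interval -1.07 to 0.41). Acly, which makes cytosolic acetyl-CoA from citrate, averaged 84.8 ± 27.6 CPM in mPGES-1 KO-labelled libraries and 134 ± 51.4 CPM in WT-labelled libraries. Fasn, the fatty acid synthase, was at 32.8, 44.9 and 31.4 CPM in mPGES-1 KO-labelled libraries and at 40.9, 28.5 and 49.7 CPM in WT-labelled libraries. For Fasn the interval of the log2 fold change, -0.92 to 0.67, does not reach a 2-fold difference either way. Acaca, the acetyl-CoA carboxylase that makes malonyl-CoA, averaged 9.08 ± 4.29 CPM in mPGES-1 KO-labelled libraries and 9.80 ± 3.34 CPM in WT-labelled libraries. Its counts are uncertain, because 26.8% of the 75-base stretches of its transcripts occur in transcripts of other annotated genes.

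The stearoyl-CoA desaturases put the first double bond into saturated fatty acids, and neither was called. Scd1, at chr19:44394455-44407879 on the minus strand, was at 249.96, 466 and 1456 CPM in mPGES-1 KO-labelled libraries and at 172, 71.7 and 120.0 CPM in WT-labelled libraries. The groups were apart, and mPGES-1 KO replicate 3 was about 3-fold above the next library. Scd1 had a log2 fold change of 2.58 ± 0.67 with an interval of 1.02 to 4.14, and did not pass (edgeR adjusted p = 0.0902). DESeq2 and limma-voom called it, with adjusted p of 3.39e-04 and 0.0253, and over 13 alternatives the adjusted p ran up to 0.264. Without mPGES-1 KO replicate 3 its log2 fold change was 1.56 (adjusted p = 0.178). Scd2, at chr19:44293674-44306864 on the plus strand, was at 71.2, 100.5 and 74.9 CPM in mPGES-1 KO-labelled libraries and at 93.5, 70.3 and 70.1 CPM in WT-labelled libraries (log2 fold change 0.08 ± 0.27, interval -0.55 to 0.71). Scd2 levels interleaved.

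Per exonic base, the ratio of Scd1 to Scd2 was 3.92, 5.18 and 21.7 in mPGES-1 KO-labelled libraries and 2.06, 1.14 and 1.91 in WT-labelled libraries. A two-sided exact permutation test of this ratio gave p = 0.1, the smallest that 3 against 3 libraries can give, and the ratio was chosen after its values were seen. Reads divided between these paralogs could touch few positions, since 3.15% of the 75-base stretches of Scd1 and 1.78% of those of Scd2 occur in another annotated gene's transcripts.

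Among the elongases and the desaturases of polyunsaturated synthesis, none of Elovl5, Elovl6, Fads1 and Fads2 passed the test. Elovl5, which elongates polyunsaturated fatty acids, was at 60.2, 88.9 and 74.1 CPM in mPGES-1 KO-labelled libraries and at 37.0, 41.6 and 44.7 CPM in WT-labelled libraries, without overlap. The log2 fold change of Elovl5 was 0.85 ± 0.28 with an interval of 0.21 to 1.503 (edgeR adjusted p = 0.146). Elovl6, which extends palmitate to stearate, was at 16.3, 27.2 and 13.2 CPM in mPGES-1 KO-labelled libraries and at 11.1, 6.67 and 10.4 CPM in WT-labelled libraries, again without overlap (log2 fold change 1.01 ± 0.52, adjusted p = 0.351). Both elongases thus had every library labelled mPGES-1 KO above every library labelled WT, and neither passed. Fads1, the delta-5 desaturase on the way to arachidonic acid, was at 15.9, 20.8 and 21.8 CPM in mPGES-1 KO-labelled libraries and at 26.7, 27.8 and 55.2 CPM in WT-labelled libraries. Here the libraries labelled mPGES-1 KO were all below those labelled WT, and WT replicate 3 stood highest (log2 fold change -0.91 ± 0.41, adjusted p = 0.286). With WT replicate 3 left out the Fads1 log2 fold change was -0.49 (adjusted p = 0.705). Fads2, the delta-6 desaturase, also on chromosome 19, was at 13.9, 14.3 and 21.5 CPM in mPGES-1 KO-labelled libraries and at 36.5, 21.3 and 15.5 CPM in WT-labelled libraries, with overlap.

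Triglyceride assembly genes were mixed. Gpam, which acylates glycerol-3-phosphate on mitochondria, was at 0.0732, 3.65 and 11.04 CPM in mPGES-1 KO-labelled libraries and at 0.137, 1.38 and 4.996 CPM in WT-labelled libraries. Each group held 1 library near 0, and the groups overlapped (log2 fold change 1.18 ± 1.72). Agpat2, the next acyltransferase, averaged 40.9 ± 4.83 CPM in mPGES-1 KO-labelled libraries and 44.2 ± 7.10 CPM in WT-labelled libraries, with an interval of -0.79 to 0.57 on the log2 scale. Dgat1, one of the enzymes of the last step, averaged 54.9 ± 13.0 CPM in mPGES-1 KO-labelled libraries and 48.8 ± 5.80 CPM in WT-labelled libraries. Dgat2, an unrelated enzyme of the same step, was at 26.0, 26.4 and 10.8 CPM in mPGES-1 KO-labelled libraries and at 12.0, 7.65 and 3.82 CPM in WT-labelled libraries. The lowest Dgat2 library labelled mPGES-1 KO fell just under the highest labelled WT (log2 fold change 1.43 ± 0.62, adjusted p = 0.268). Lpl, the lipoprotein lipase that frees fatty acids from circulating triglyceride, was at 433, 82.2 and 277 CPM in mPGES-1 KO-labelled libraries and at 328, 299 and 596 CPM in WT-labelled libraries. mPGES-1 KO replicate 2 was the low library for Lpl, and the groups overlapped (log2 fold change -0.63 ± 0.57). The Lpl value was -0.16 with that library left out, -1.17 with mPGES-1 KO replicate 1 left out and -0.25 with WT replicate 3 left out.

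**Figure D3:**
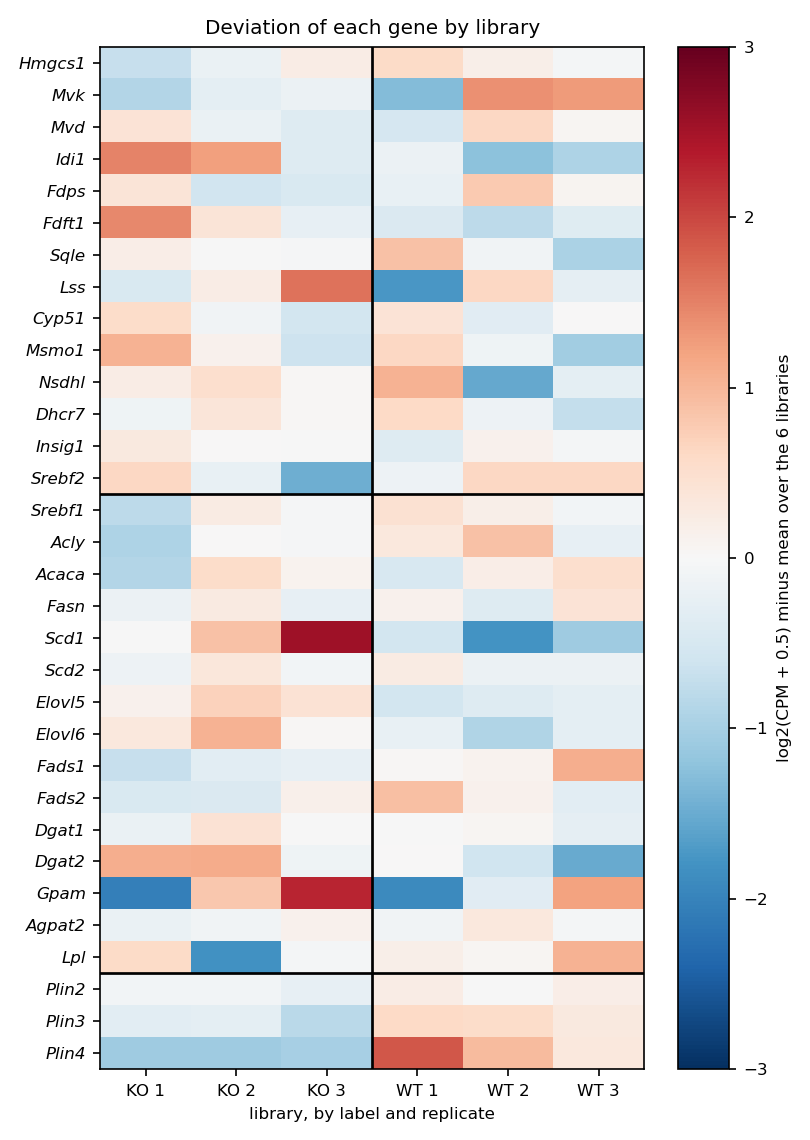
Deviation of log2(CPM + 0.5) from each gene's mean over the 6 libraries, in colour, with the libraries labelled mPGES-1 KO on the left and those labelled WT on the right; lines divide the 3 gene groups. Scd1 is high in mPGES-1 KO replicate 3, 7 of the 15 fatty acid and triglyceride genes are lowest in mPGES-1 KO replicate 1, and Plin2, Plin3 and Plin4 divide by label.

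Single libraries carried much of the variation. Among the 15 fatty acid and triglyceride genes, mPGES-1 KO replicate 1 held the lowest value in 7 and the highest in 0, and mPGES-1 KO replicate 2 held the highest in 6. Among the 14 cholesterol genes, mPGES-1 KO replicate 1 held the highest value in 5, and WT replicate 1 held the highest in 4 and the lowest in 4. The library with high sterol genes was thus also the one with low fatty acid genes within mPGES-1 KO-labelled libraries. This describes single libraries and was not tested.

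Further fatty acid genes are counted against the same shares of all genes, and against 19.1% at an unadjusted p under 0.05. Of 14 genes of fatty acid supply and synthesis outside the members, 2 rose and 0 fell, and their median log2 fold change was 0.71. Elovl7, an elongase of saturated very long chains, was at 64.7, 75.9 and 52.4 CPM in mPGES-1 KO-labelled libraries and at 2.25, 11.8 and 4.23 CPM in WT-labelled libraries (log2 fold change 3.40 ± 0.64, edgeR adjusted p = 0.0395). Acsl4, the acyl-CoA synthetase that prefers arachidonic acid, was at 91.2, 133 and 68.0 CPM in mPGES-1 KO-labelled libraries and at 26.1, 13.3 and 24.1 CPM in WT-labelled libraries (log2 fold change 2.20 ± 0.40, adjusted p = 0.0349). Neither gene overlapped between the groups. Leaving out any 1 library except WT replicate 1 ended both calls, with adjusted p of 0.0554 to 0.151 for Elovl7 and 0.0774 to 0.128 for Acsl4. Of 9 tested genes of glycerolipid synthesis outside the members, 0 were called by edgeR, 2 reached an unadjusted p under 0.05 and the median log2 fold change was -0.07. They ran from -1.87 ± 0.58 for Agpat4, an acyltransferase that makes phosphatidic acid, to 2.00 ± 1.13 for Lpin2, a phosphatidate phosphatase, among genes of at least 5 CPM. Of 12 genes of fatty acid uptake and binding, 0 were called and 5 reached an unadjusted p under 0.05, with a median of -0.40. Vldlr, a lipoprotein receptor, had the highest log2 fold change of that list (1.87 ± 0.44, adjusted p = 0.0728) and Angptl4, an inhibitor of lipoprotein lipase, the lowest (-1.88 ± 0.70, adjusted p = 0.195). Angptl4 was at 146, 89.7 and 77.8 CPM in mPGES-1 KO-labelled libraries and at 180, 134 and 839 CPM in WT-labelled libraries. Its groups overlapped, and WT replicate 3 stood far above the rest.

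Among the gene groups, only the perilipin members all lay on one side. Plin2, Plin3 and Plin4 were lower in mPGES-1 KO-labelled libraries, with groups that did not overlap, and 0 of 3 were called by edgeR. The share of all genes with groups apart in that direction was 15.7%, and 2.76% of all genes were called. The median log2 fold change of the 3 was -0.94, which is that of Plin3. An unadjusted p under 0.05 was reached by 2 of 3, against 19.1% of all genes. Together the 3 members took 0.0395%, 0.0421% and 0.0320% of counts in mPGES-1 KO replicates 1 to 3 and 0.0583%, 0.0547% and 0.0508% in WT replicates 1 to 3. Plin1 and Plin5, the perilipins outside the members, were low and their groups overlapped. Their log2 fold changes were 1.59 ± 1.79 and -0.52 ± 2.55 (SE), so the shared direction covers the members only.

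Plin2, the droplet coat found in most cell types and a main coat of milk fat droplets, was at 286, 289 and 256 CPM in mPGES-1 KO-labelled libraries and at 357, 302 and 350.1 CPM in WT-labelled libraries. The gap between the groups was narrow, with mPGES-1 KO replicate 2 just under WT replicate 2. The log2 fold change was -0.28 ± 0.23 with an interval of -0.81 to 0.24 (edgeR adjusted p = 0.576). Plin3, which cycles between the cytosol and new droplets, is at chr17:56277476-56292873 on the minus strand. It was at 116, 117 and 82.0 CPM in mPGES-1 KO-labelled libraries and at 218, 211.5 and 176 CPM in WT-labelled libraries, close to a 2-fold gap with little spread inside either group. Plin3 had a log2 fold change of -0.94 ± 0.26 with an interval of -1.54 to -0.35, and did not pass (adjusted p = 0.0966). DESeq2 (adjusted p = 0.0349) and limma-voom (0.0377) called it, and over 13 alternatives the adjusted p ran up to 0.319.

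Plin4, known best as a coat of nascent droplets in adipocytes, is at chr17:56100591-56109803, also on the minus strand. It had 0, 0 and 1 counts in mPGES-1 KO replicates 1 to 3 and 145, 61 and 29 counts in WT replicates 1 to 3, which is 3.30, 1.53 and 0.796 CPM in WT-labelled libraries. The gene was thus almost absent from the counts of one label and low in the other. Summed over libraries, WT over mPGES-1 KO gave a ratio of 169 with a 95% exact counting interval of 30.1 to 6715. Reads were amplified and carry no molecular identifiers, so this interval covers counting error only. edgeR gave an adjusted p of 0.0898, and DESeq2 and limma-voom 0.00914 and 0.0350, and over 12 alternatives it ran up to 0.285. The fitted fold change depends on the prior count and is not given. Of 7 tested adipocyte markers the log2 fold changes were positive in 6 and negative in 1, Cfd (-0.48 ± 1.01). Cfd, the highest of them, was at 22.9, 6.24 and 39.6 CPM in mPGES-1 KO-labelled libraries and at 9.95, 6.89 and 79.4 CPM in WT-labelled libraries. Lipe averaged 9.92 and 8.02 CPM in that order. The low markers Adipoq and Plin1 were at 0.0419 to 3.58 CPM in mPGES-1 KO-labelled libraries and at 0.0683 to 2.72 CPM in WT-labelled libraries. Retn, Cidec and Pck1 reached at most 5.89, 6.66 and 12.6 CPM in mPGES-1 KO-labelled libraries. In WT-labelled libraries these genes reached at most 5.41, 5.41 and 2.86 CPM. Pericyte and smooth muscle markers moved with Plin4 at the shares given above, and their part in it was not tested.

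The ratio of Plin2 to Plin3 per exonic base was 2.67, 2.66 and 3.36 in mPGES-1 KO-labelled libraries and 1.76, 1.54 and 2.14 in WT-labelled libraries. A two-sided exact permutation test gave p = 0.1, the smallest possible with 3 against 3, and the ratio was chosen after its values were seen.

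Among 14 tested genes of lipolysis and other droplet proteins, 1 fell, 0 rose and 13 did not pass, where 1.56% of all genes fell and 1.20% rose. An unadjusted p under 0.05 was reached by 5 of 14, against 19.1% of all genes. The groups were apart and higher in 3 and apart and lower in 1, against 12.2% and 15.7% of all genes. G0s2, an inhibitor of adipose triglyceride lipase, was at 49.3, 28.2 and 46.6 CPM in mPGES-1 KO-labelled libraries and at 183, 162 and 213 CPM in WT-labelled libraries. Every library labelled mPGES-1 KO was far below every one labelled WT, and the log2 fold change was -2.17 ± 0.30 (edgeR adjusted p = 0.0202). G0s2 was no longer called when mPGES-1 KO replicate 2 (adjusted p = 0.0926), mPGES-1 KO replicate 3 (0.0748), WT replicate 2 (0.0832) or WT replicate 3 (0.0563) was left out. The list median was 0.69, with 10 log2 fold changes positive and 4 negative. In the same libraries the luminal markers took 4.02 ± 0.914% of counts where labelled mPGES-1 KO and 0.992 ± 0.311% where labelled WT, and their part in these values was not tested.

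**Figure D4:**
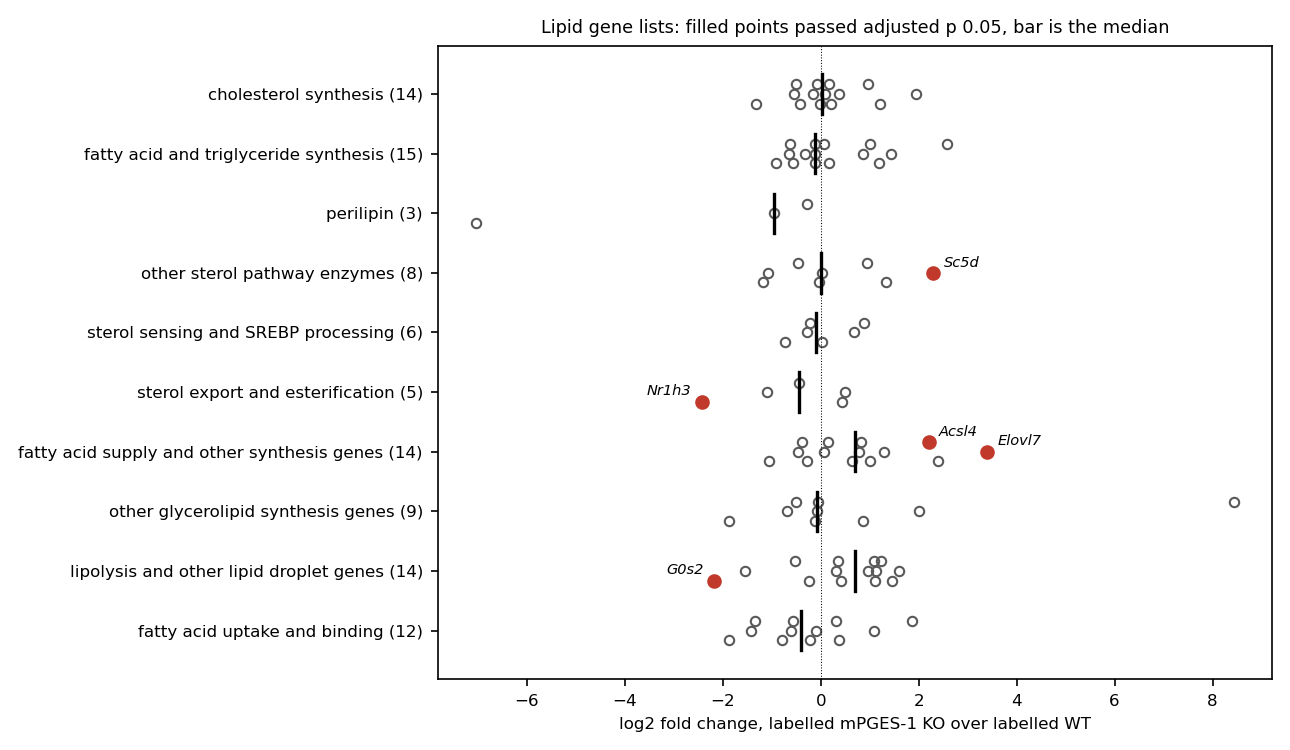
Log2 fold change of each tested gene in the 3 member groups and 7 further lipid lists, labelled mPGES-1 KO over labelled WT, with the number tested in brackets and a bar at each list's median. The filled points, Sc5d, Acsl4 and Elovl7 to the right and Nr1h3 and G0s2 to the left, are the 5 called genes, none of them in the top 3 lists.

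Levels can be compared between genes only per length, and for this CPM was divided by the kilobases of exon annotated for each gene. These lengths merge the exons of all annotated transcripts of a gene. A gene whose merged length exceeds that of the transcripts present therefore reads too low, and the order is approximate. Plin2 was the highest of the 32 over all libraries, at 78.9 ± 5.23 CPM per kb in mPGES-1 KO-labelled libraries and 95.8 ± 8.58 CPM per kb in WT-labelled libraries. Scd1 was next, at 148 ± 131 and 24.8 ± 10.3 CPM per kb in mPGES-1 KO-labelled and WT-labelled libraries in that order, followed by Srebf1, Plin3 and Lpl. The order differed by label: Scd1 was first and Plin2 next in mPGES-1 KO-labelled libraries, while in WT-labelled libraries Plin2 was followed by Plin3 (53.3 CPM per kb), Srebf1, Lpl, Acly (25.3 CPM per kb) and only then Scd1. The first cholesterol gene in the order over all libraries was Nsdhl, at 12.0 ± 2.05 CPM per kb in mPGES-1 KO-labelled and 10.7 ± 9.05 in WT-labelled libraries, and the cholesterol enzymes from Nsdhl to Dhcr7 lay between 5.77 and 11.4 CPM per kb over all libraries. In mPGES-1 KO-labelled libraries alone Fdft1, at 14.3 CPM per kb, was above Nsdhl. Neighbouring cholesterol enzymes in that stretch differed by less than the SD of one of them among WT libraries. Srebf1 was at 40.2 ± 13.4 CPM per kb in mPGES-1 KO-labelled and 50.4 ± 9.21 in WT-labelled libraries, against 3.48 ± 2.28 and 5.08 ± 1.46 CPM per kb for Srebf2 in that order. The lowest were Fdps, Lss, Acaca, Gpam and Plin4, all under 1 CPM per kb on average. Lss and Acaca were divided by 10787 and 17074 exonic bases. Of the 75-base stretches, 23.5% of those of Fdps and 26.8% of those of Acaca occur in other genes' transcripts. The low places of Fdps, Lss and Acaca are thus uncertain.

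**Figure D5:**
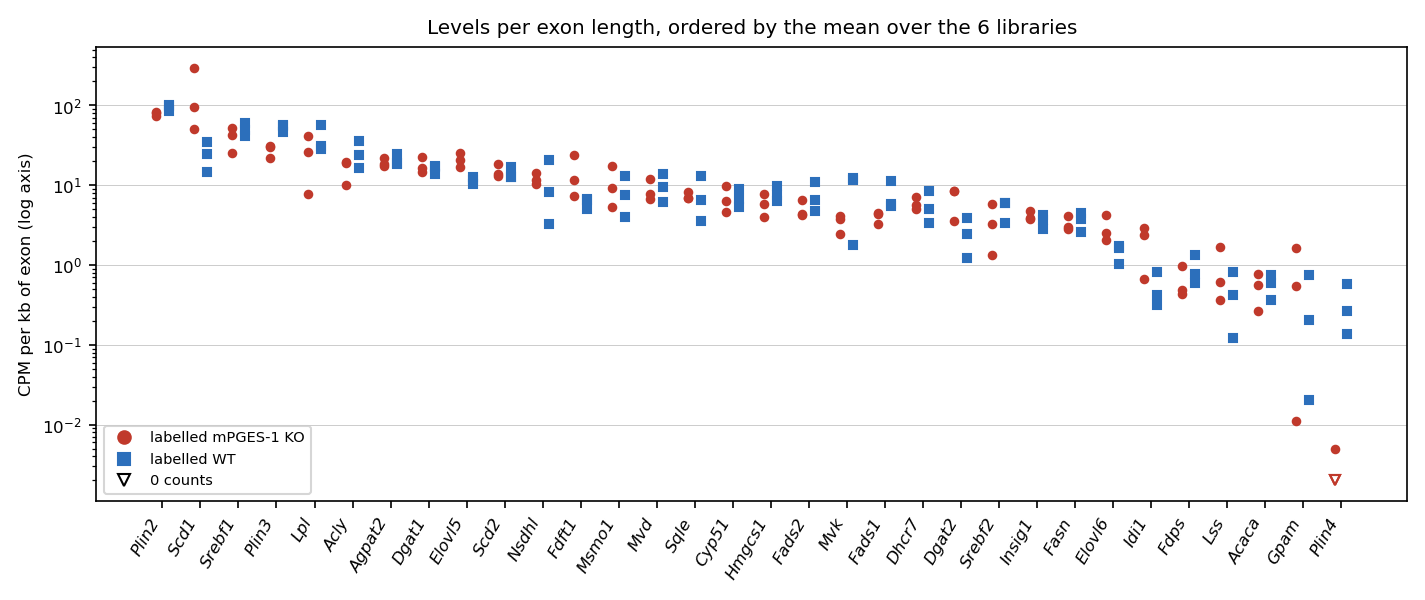
CPM per kilobase of exon in each library on a log axis, genes ordered by their mean over the 6 libraries, with circles for libraries labelled mPGES-1 KO, squares for those labelled WT and triangles for 0 counts. Plin2 and Scd1 lead, and Gpam and Plin4 are lowest.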

How the data were processed

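RNA-seq counts of 6 libraries were analysed, 3 labelled mPGES-1 KO and 3 labelled WT. Per the labels' protocols, cDNA was made with a template-switching ultra-low input kit, amplified by 16 PCR cycles, sheared and sequenced for 75 cycles. Sheared double-stranded cDNA keeps no strand, and no molecular identifiers are named. The authors deposited 1 table of raw counts by gene symbol, whose columns were matched to samples by name; FastQC 0.11.5, STAR and mm10 are named in the submitters' processing notes, while the program and annotation used for counting were not given in the sources used here. No pair of libraries was identical.

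The test was edgeR 4.0.16's quasi-likelihood test in R 4.3.3 (filterByExpr, TMM, robust estimateDisp, glmQLFit and glmQLFTest), two-sided, over 16543 genes with Benjamini-Hochberg adjustment, and called at an adjusted p under 0.05. The scripts were tested on simulated data. The standard error is the log2 fold change over the square root of F, and 95% intervals use the total degrees of freedom of the fit. Alternatives were DESeq2 size factors, library totals, no filter, 1 CPM in 3 libraries, DESeq2 1.42.0, limma-voom (limma 3.58.1), the replicate number as a block and each library left out. Positions, exon lengths and 75-base stretches come from GENCODE M21 (GRCm38) and promoters from RefSeq (GRCm38.p6). All 32 members are named; of each further list, the called genes, or otherwise the extremes at a mean of at least 5 CPM; of markers, sums and leading genes. Members and lists were chosen with earlier results of these data known. Of the Ctsb gene, values are given for its overlap with Fdft1. Low adipocyte markers are given beside Plin4, and Plin1 and Plin5 as the other perilipins.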

Additional observations from a re-analysis of the deposited data

How the results depend on the processing

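Among the 32 members, 20 kept the sign of their log2 fold change under all of their alternatives and 12 did not, and no member was called except Scd1, Plin3 and Plin4, in DESeq2 and limma-voom. Those tests called 1 fatty acid and triglyceride member and 2 perilipins each, in place of 0, and 2093 (DESeq2) and 1965 (limma-voom) of all genes in place of 456. The replicate numbers did not pair the libraries (correlations of same-numbered deviations -0.077, 0.030 and -0.0035); with the number as a block 0 genes were called by edgeR, with 2716 at an unadjusted p under 0.05, so the calls of Sc5d, Nr1h3, Elovl7, Acsl4 and G0s2 were lost. Without 1 library the count of all genes ran from 0 to 568: 160 when mPGES-1 KO replicate 1 was omitted, 0 for mPGES-1 KO replicate 2 or 3 (2574 and 2975 at an unadjusted p under 0.05), 568 for WT replicate 1, 1 for WT replicate 2 and 150 for WT replicate 3. The median log2 fold change then ran from -0.16 to 0.37 for cholesterol genes, from -0.15 to 0.17 for fatty acid and triglyceride genes and from -1.04 to -0.79 for perilipins. The fatty acid and triglyceride median was 0.12 in limma-voom, and the perilipin median -0.57 at 1 CPM in 3 libraries, a filter that removed Plin4. Signs turned in limma-voom for Sqle (0.32), Cyp51 (0.12) and Fasn (0.12), with the block for Sqle (0.12), and for Cyp51 with DESeq2 size factors (0.034), no filter (0.028), 1 CPM in 3 libraries (0.029) and DESeq2 (0.034). Leaving out 1 library turned the signs of Mvd (-0.42 to 0.24), Sqle (-0.41 to 0.56), Cyp51 (-0.37 to 0.23), Msmo1 (-0.17 to 0.90), Nsdhl (-0.20 to 1.12), Dhcr7 (-0.18 to 0.53), Acaca (-0.45 to 0.21), Fasn (-0.27 to 0.063), Scd2 (-0.062 to 0.26), Dgat1 (-0.012 to 0.30), Gpam (-0.22 to 2.69) and Agpat2 (-0.21 to 0.085). The cause was not tested. At these depths 3 counts stand for 0.0683 to 0.126 CPM, so low members such as Plin4, Gpam and Fdps rest on few reads.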
